A study of Mus musculus with 12 samples.

Results

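The 6 mouse gene copies, Gm3776, Gstm2-ps1, Gm21399, Gm6061, Gm7329 and Gm7049, were followed in differentiating muscle cells with and without 4-octyl itaconate (OI). They were chosen by symbol, as copies of genes for glutathione and NADPH metabolism, with the difference between OI and control already known. The set is 6 of the 27942 genes analysed. C2C12, mouse myoblasts able to fuse into myotubes in low serum, was kept for 7 days in 2% horse serum, either with 25 µmol/L OI (3 libraries) or untreated (control, 3 libraries). OI is an ester of itaconate, an immune-cell metabolite, made to enter cells. The labels do not say whether the libraries came from separate cultures, so the spread between them may be technical. A further 3 OI and 3 control samples were not analysed here.

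NRF2 is a transcription factor held down by KEAP1, a cysteine-rich sensor protein, and electrophiles such as itaconate derivatives modify KEAP1 and free it. NRF2 then binds antioxidant response elements near genes that make and use glutathione, among them Gsta1 and Gstm1, glutathione transferases that attach glutathione to electrophiles, and Gclm, the modifier subunit of the enzyme that limits glutathione synthesis. Other known targets are Prdx1, a peroxiredoxin that removes hydrogen peroxide, and Me1, the cytosolic malic enzyme that makes NADPH. The parent genes Gsta1, Gstm1, Prdx1, Gclm and Me1 were not analysed here, and a copy can take reads that came from its parent.

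Sequence did not bear out 1 of the 6 assignments. Gm6061 was chosen as a copy of Gclm, yet its closest protein-coding transcript was Ppia, which encodes the peptidyl-prolyl isomerase cyclophilin A. The match covered all 492 bases of Gm6061 with 1 mismatch (99.8% identity). Gm6061 lies within the Gclm locus on chromosome 3 and shares 244 exonic bases with an annotated Gclm transcript on the same strand. All 492 of its bases also overlap the antisense gene Gm17494, which was not analysed here. Gm6061 is therefore described as a Ppia copy that overlaps Gclm. For the other five, the closest protein-coding transcript was the gene named in the choice. Gene models are those of GENCODE release M21 on GRCm38 (mm10), and the sequences below, read from its transcripts, show how little separates each copy from its parent.

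Gm3776 (ENSMUSG00000111709, chr9:78257129-78269166, plus strand) is annotated as protein-coding, with 7 exons and 874 bases. It matched Gsta1 at 99.5% identity over its whole length, with 4 mismatches, and the longest stretch without a difference was 565 bases. Its coding frame over 224 codons of Gsta1 held no early stop. Identity to Gsta2, the neighbouring alpha-class transferase, was 97.2%, with 24 mismatches. Bases 680 to 769 of Gm3776 are printed with the matching bases of Gsta1 and Gsta2, because they hold the mismatch to Gsta1 nearest the 3′ end. Capitals mark the 8 positions at which any of the 3 sequences differ. Over this stretch Gsta1 differs from Gm3776 at 1 base and Gsta2 at 8.
Gm3776: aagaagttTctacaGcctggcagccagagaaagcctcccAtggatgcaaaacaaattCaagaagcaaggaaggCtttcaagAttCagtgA
Gsta1: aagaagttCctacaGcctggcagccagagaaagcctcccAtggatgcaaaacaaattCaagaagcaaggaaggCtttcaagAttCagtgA
Gsta2: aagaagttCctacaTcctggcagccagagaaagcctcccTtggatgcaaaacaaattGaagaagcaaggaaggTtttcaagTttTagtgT

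Gstm2-ps1 (ENSMUSG00000107369, chr5:116632908-116633564, minus strand) is a processed pseudogene of 1 exon and 657 bases. Despite its symbol it was closer to Gstm1 (97.9% identity, 14 mismatches) than to Gstm2 (85.8%). Read in the frame of Gstm1, it holds 1 stop codon before the parent's own. Bases 183 to 262 (chr5:116633303-116633382, minus strand) are shown because differences to Gstm1 are dense there. Capitals mark the 8 positions that vary, 5 of them between Gstm2-ps1 and Gstm1 and 6 between Gstm2-ps1 and Gstm2.
Gstm2-ps1: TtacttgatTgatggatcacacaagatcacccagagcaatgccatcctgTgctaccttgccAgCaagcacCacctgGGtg
Gstm1: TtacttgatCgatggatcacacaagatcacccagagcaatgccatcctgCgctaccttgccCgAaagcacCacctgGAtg
Gstm2: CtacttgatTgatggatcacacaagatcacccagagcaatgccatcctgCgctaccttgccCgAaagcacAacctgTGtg

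Gm21399 (ENSMUSG00000094530, chr8:129252998-129253594, plus strand) is a processed pseudogene of 1 exon and 597 bases, 98.3% identical to Prdx1 with 10 mismatches. Its frame stays free of early stops over 199 codons of Prdx1. Bases 164 to 243 (chr8:129253161-129253240, plus strand) hold 3 of the mismatches, marked by capitals.
Gm21399: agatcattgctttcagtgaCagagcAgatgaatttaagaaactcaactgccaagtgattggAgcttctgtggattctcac
Prdx1: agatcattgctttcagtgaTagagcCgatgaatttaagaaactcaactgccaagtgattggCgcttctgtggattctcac

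Gm6061 (ENSMUSG00000093392, chr3:122256728-122257219, plus strand) is a transcribed processed pseudogene of 1 exon. Bases 270 to 359 (chr3:122256997-122257086, plus strand) include its only mismatch to Ppia, at base 324. They are set beside Ppia and Gm13493, a second Ppia copy on chromosome 2. Capitals mark the 2 positions that vary among the 3.
Gm6061: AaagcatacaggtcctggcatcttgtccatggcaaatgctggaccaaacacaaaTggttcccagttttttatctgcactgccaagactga
Ppia: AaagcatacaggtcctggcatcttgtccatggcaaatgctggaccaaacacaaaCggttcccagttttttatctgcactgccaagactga
Gm13493: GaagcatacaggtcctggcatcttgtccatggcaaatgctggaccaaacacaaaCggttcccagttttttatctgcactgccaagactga

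Gm7329 (ENSMUSG00000100774, chr1:65095227-65095436, plus strand) and Gm7049 (ENSMUSG00000113637, chr13:62813076-62814787, plus strand) are processed pseudogenes of 1 exon, with 210 and 1712 bases. Both matched Me1. Gm7329 had 2 mismatches to it (99.0% identity), and Gm7049 had 21 mismatches and 6 gap bases (98.4%). Gm7049 spans nearly the whole coding region of Me1, while Gm7329 matches the last 210 coding bases of Me1 before the stop. Read in the codons of Me1, Gm7049 holds 1 stop before that of Me1. Gap bases at positions 12, 13 and 62 shift the frame of Gm7049 itself, in which stops were not counted. Gm7329 is printed whole beside Me1 and bases 1503 to 1712 of Gm7049, since the 2 copies cover the same stretch and were 98.1% identical there. Capitals mark the 5 positions that vary, 2 of them between Gm7329 and Me1 and 4 between Gm7329 and Gm7049.
Gm7329: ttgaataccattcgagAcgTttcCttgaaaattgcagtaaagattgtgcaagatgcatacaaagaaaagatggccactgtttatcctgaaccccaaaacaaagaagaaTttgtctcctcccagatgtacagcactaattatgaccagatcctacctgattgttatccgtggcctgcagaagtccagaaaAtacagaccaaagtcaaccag
Me1: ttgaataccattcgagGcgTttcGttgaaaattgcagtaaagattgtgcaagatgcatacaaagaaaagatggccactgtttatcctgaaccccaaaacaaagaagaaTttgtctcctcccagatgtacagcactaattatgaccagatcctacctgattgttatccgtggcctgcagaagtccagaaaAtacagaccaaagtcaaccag
Gm7049: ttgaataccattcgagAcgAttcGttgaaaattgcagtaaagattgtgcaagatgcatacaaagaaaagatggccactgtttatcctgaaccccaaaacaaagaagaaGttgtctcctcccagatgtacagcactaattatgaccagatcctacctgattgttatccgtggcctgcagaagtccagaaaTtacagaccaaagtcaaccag

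**Figure D1:**
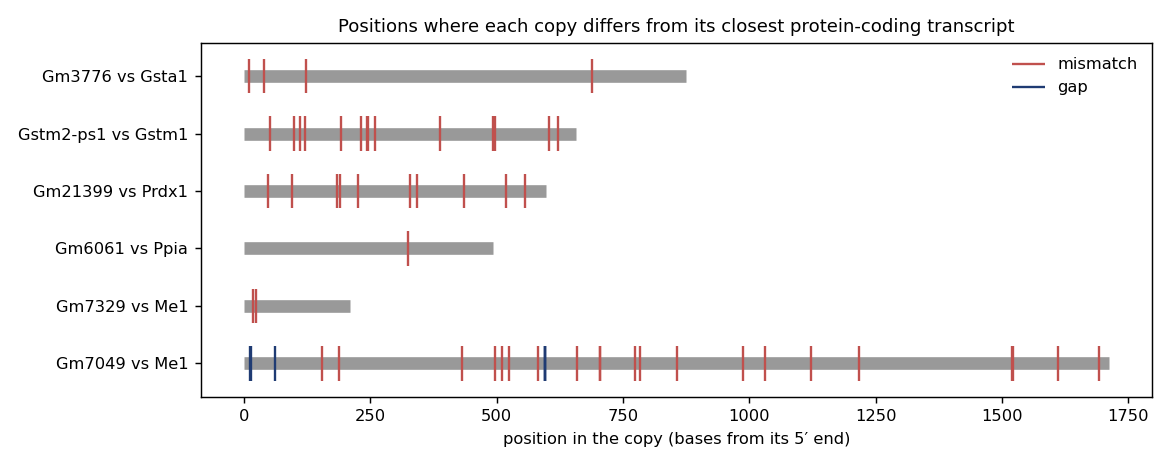
Each grey bar is a copy drawn to its length in bases from its 5′ end, with red lines at mismatches and blue lines at gaps against its closest protein-coding transcript. Gm3776 has 4 differences in 874 bases and Gm6061 has 1 in 492, while Gstm2-ps1 has 14 in 657.

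How far a read could be placed on a copy was described by cutting each copy into windows. Of 50-base windows, 65.9% in Gm21399, 53.1% in Gstm2-ps1 and 51.7% in Gm7049 occurred in no other annotated gene, overlapping genes aside. The share was 14.9% in Gm7329 and 7.5% in Gm3776, and in Gm6061 it was 0.0%. At 150 bases every window of Gstm2-ps1 and Gm21399 was its own, against 84.3% in Gm7049, 41.7% in Gm6061, 39.3% in Gm7329 and 22.3% in Gm3776. The copy with the largest difference between OI and control, Gm3776, and the most abundant, Gm6061, were thus among the 3 that could be told apart least. In Gm3776, 83.0% of the 50-base windows occurred in Gsta1. Neither the read length nor the layout was given in the sources used.

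**Figure D2:**
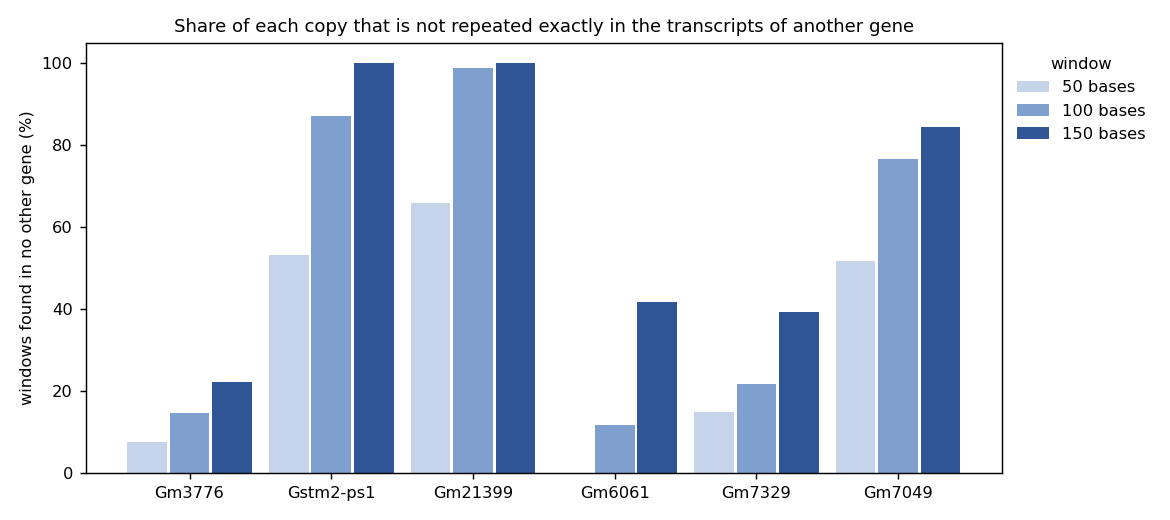
Bars give the percentage of windows of 50, 100 and 150 bases in each copy that occur without a mismatch in no other annotated gene. Genes that overlap the copy were left out. Gm21399 and Gstm2-ps1 have no repeated window at 150 bases, Gm3776 reaches 22.3%, and Gm6061 has 0.0% at 50 bases.

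Values are FPKM, which divides fragments by the length of the gene and the size of the library, and fold changes are differences of mean log2(FPKM + 1), OI minus control, which understates changes of low genes. The recovered library sizes ran from 24441000 to 36274000 reads. Control replicate 1 stood apart: AY036118 was at 70760 FPKM there and at 692 to 2450 in the other libraries. AY036118 was only part of its summed FPKM, 189789 over the genes analysed, against 51797 to 56771 in the other libraries. It also had the most genes above 0, at 7891 against 6781 to 7323. Of the 10 differentiated-muscle markers fixed, Tnnc1 and H19 were among the genes analysed. None of the 5 proliferating-myoblast, 4 fibroblast or 4 macrophage markers was, so the cell type could be checked only in part. Tnnc1, slow and cardiac troponin C, was at 21.9 to 24.7 FPKM with OI, against 110 to 140 FPKM in control, and H19, an imprinted long RNA abundant in differentiating muscle, at 24.1 to 32.1 FPKM with OI, against 131 to 136 FPKM in control. The part of either difference in those of the copies was not tested.

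All 6 copies had reads in every library and passed the filter of 1 FPKM in at least 3 libraries, as did 1737 genes in all. Gm3776 passed through its OI libraries and 1 control library. All 6 had a higher mean with OI, as did 44.6% of the genes tested. Their median log2 fold change was 0.37 against -0.02 over all tested genes, and it was 0.25 without Gm6061. Over the 393 processed pseudogenes tested the median was -0.00, and 49.6% of them had a higher mean with OI. In 2 of the 6, Gm3776 and Gm21399, every OI library lay above every control library, which held for 11.1% of genes tested. Of the genes tested, 2.76% were called in either direction (limma, adjusted p under 0.05). Gm3776 alone was among the 1.15% called higher, a count that falls to 0 without OI replicate 2, OI replicate 3 or control replicate 2, and none of the 6 was among the 1.61% called lower. Nothing is read from these counts, since the copies were chosen on this contrast.

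**Figure D3:**
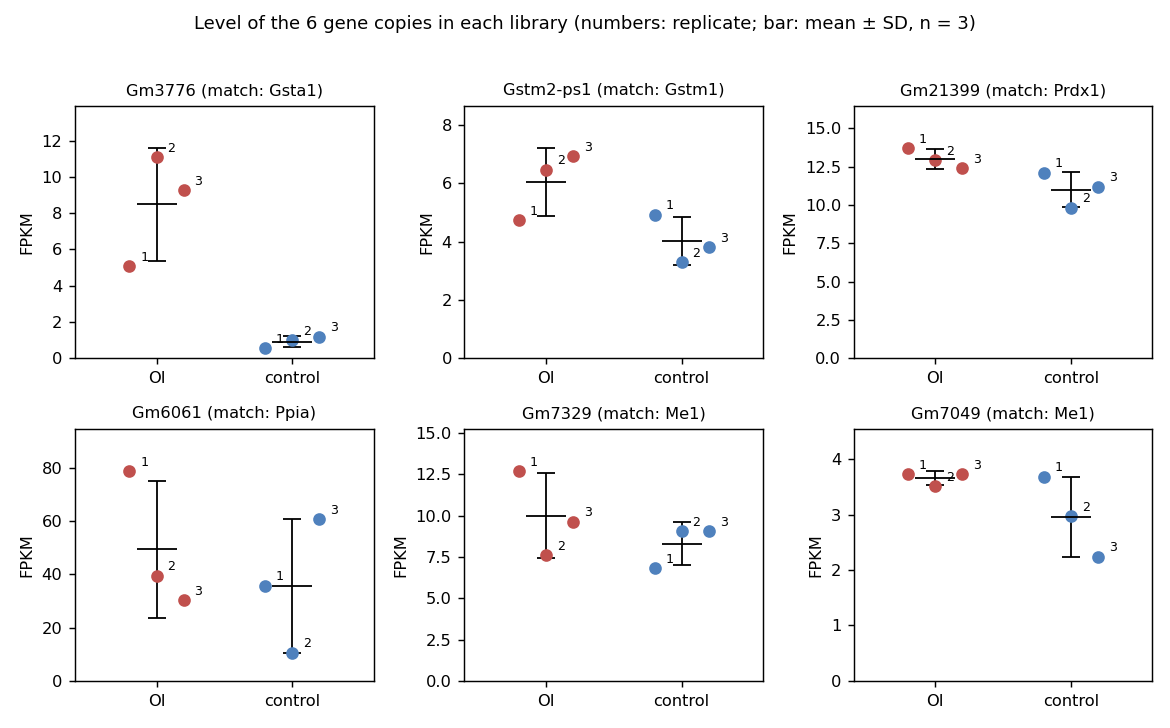
Points give FPKM per library, numbered by replicate, with OI left of control and bars at the mean ± SD (n = 3). Gm3776 separates widely (5.06 to 11.1 with OI, 0.562 to 1.18 in control), Gm21399 separates narrowly, and the other four overlap.

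The alpha-class transferase copy Gm3776 showed the widest gap. It was at 5.06, 11.1 and 9.27 FPKM in OI replicates 1, 2 and 3, against 0.562, 0.975 and 1.18 FPKM in control replicates 1, 2 and 3. All OI libraries were far above all control libraries, although OI replicate 1 had less than the other two. These levels rest on 142, 352 and 208 reads with OI and 12, 26 and 31 in control. The means were 8.48 ± 3.10 FPKM with OI and 0.906 ± 0.316 FPKM in control (SD, n = 3 each), a ratio of 9.35. On the log2(FPKM + 1) scale the fold change was 2.27 ± 0.28 (SE), the second highest among the 1737 genes tested. In bulk RNA, more cells with the transcript and more transcript per cell cannot be told apart, nor can reads of Gm3776 and Gsta1 over the stretches that they share. Without control replicate 1, which stood apart, the fold change was 2.13. Without 1 library it ran between 2.06 (without OI replicate 2) and 2.56 (without OI replicate 1).

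The spread of Gm3776 between libraries is given beside counting error, which leaves out all differences between the libraries themselves. Its coefficient of variation was 36.6% with OI, where counting error alone gives 6.54%, and 34.9% in control, where it gives 20.9%. The 2 tested genes whose profile over the 6 libraries lay nearest were Ugt1a7c and Rnasek, at root mean square distances of 0.583 and 0.606 in centred log2(FPKM + 1). Neither was close, since the profile of Gm3776 itself has a root mean square of 1.18. Ugt1a7c, a glucuronosyltransferase that shares exonic bases with Ugt1a6a, was at 1.65, 3.27 and 4.25 FPKM with OI, against 0.504, 0.582 and 1.22 FPKM in control. Like Gm3776 it was lowest in replicate 1 of each group. Rnasek was at 22.1, 66.7 and 74.6 FPKM with OI, against 20.8, 19.2 and 18.6 FPKM in control, so it shared the low OI replicate 1 but was highest in control replicate 1 among the controls.

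The mu-class copy Gstm2-ps1 was at 4.74, 6.46 and 6.93 FPKM with OI, against 4.92, 3.29 and 3.81 FPKM in control. OI replicates 2 and 3 lay above all controls, but control replicate 1 was above OI replicate 1, so the groups overlapped. The reads behind it were 100, 154 and 117 with OI and 79, 66 and 75 in control. Means were 6.04 ± 1.16 FPKM with OI and 4.01 ± 0.832 FPKM in control (SD, n = 3 each), and the log2 fold change was 0.49 ± 0.17 (SE). It was 0.62 without control replicate 1. The nearest profile was that of the processed pseudogene Gm17222, at a distance of 0.120 from Gstm2-ps1, whose own root mean square was 0.316.

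Further matches to Gstm1 or Gstm2 were partial and low. Gm8834, a processed pseudogene of which 36.6% matched Gstm1, is a near-identical copy of Gstm3, another mu-class gene. It had 18, 13 and 16 reads with OI, against 9, 8 and 8 in control. In FPKM the groups overlapped, at 0.992, 0.634 and 1.10 with OI, against 0.652, 0.464 and 0.472 in control. Gm6665, of which 56.2% matched Gstm1, had 6, 7 and 5 reads with OI, against 6, 9 and 11 in control. Both were below the filter and differed in which group was higher. Among genes with reads, no other had 80% of its length matched to Gsta1. Gm10639, which aligned with all of Gm3776 at 96.8% identity, was not analysed here. Gm2693, 27.7% of which matched Gsta2, had 2 reads in OI replicate 1 alone.

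The peroxiredoxin copy Gm21399 differed little but separated the groups. It was at 13.7, 12.9 and 12.4 FPKM with OI, against 12.1, 9.82 and 11.2 FPKM in control. The lowest OI library lay just above the highest control library. The reads behind it were 262, 279 and 190 with OI and 176, 179 and 201 in control. Means were 13.0 ± 0.641 FPKM with OI and 11.0 ± 1.13 FPKM in control (SD, n = 3 each), a ratio of 1.18 and a log2 fold change of 0.22 ± 0.09 (SE). It was 0.28 without control replicate 1 and 0.14 without control replicate 2. Its nearest profile was that of Tfe3, a lysosomal transcription factor gene, at a distance of 0.0529. Tfe3 was at 6.81, 6.25 and 6.46 FPKM with OI, against 5.79, 5.23 and 5.53 FPKM in control.

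The malic enzyme copies overlapped between groups and did not follow each other. Gm7329 was at 12.7, 7.61 and 9.64 FPKM with OI, against 6.82, 9.05 and 9.05 FPKM in control. OI replicate 1 was highest, and OI replicate 2 was below control replicates 2 and 3. The copy has few reads, 86, 58 and 52 with OI and 35, 58 and 57 in control. Means were 10.0 ± 2.59 FPKM with OI and 8.31 ± 1.29 FPKM in control (SD, n = 3 each), and the log2 fold change was 0.22 ± 0.19 (SE). It was 0.05 without OI replicate 1 and 0.10 without control replicate 1. The nearest profile to Gm7329 was that of the processed pseudogene AC154477.1, at a distance of 0.0898.

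Gm7049 was at 3.73, 3.51 and 3.73 FPKM with OI, against 3.68, 2.97 and 2.24 FPKM in control. The OI libraries lay close together, and control replicate 1 fell among them. Reads numbered 205, 218 and 164 with OI and 154, 155 and 115 in control. Means were 3.66 ± 0.126 FPKM with OI and 2.96 ± 0.720 FPKM in control (SD, n = 3 each), and the log2 fold change was 0.25 ± 0.14 (SE). It was 0.11 without control replicate 3 and 0.38 without control replicate 1. The nearest profile to Gm7049 was that of the processed pseudogene Gm2541, at a distance of 0.0678. On the opposite strand Gm7049 shares 819 exonic bases with the long intergenic RNA Gm48795, which was at 5.42, 3.80 and 5.23 FPKM with OI, against 3.52, 3.25 and 3.96 FPKM in control. Whether counting used strand was not stated in those sources, so their reads cannot be told apart over that stretch.

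Per length, Gm7329 was the higher of the pair in every library. The ratio of Gm7329 to Gm7049 was 3.42, 2.17 and 2.58 with OI, against 1.85, 3.05 and 4.04 in control. Control libraries held both the lowest and the highest ratio. Reads from Me1 itself could fall on either copy where they match, and whether they did was not tested.

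Gm6061 was the most abundant of the 6 and the most uneven. It was at 78.7, 39.4 and 30.2 FPKM with OI, against 35.7, 10.6 and 60.7 FPKM in control. Control replicate 3 exceeded 2 OI libraries and control replicate 2 was far below the rest, so the groups overlapped. Reads numbered 1243, 703 and 382 with OI and 429, 159 and 896 in control. Over the 244 exonic bases shared with Gclm on the same strand, reads of Gm6061 and Gclm cannot be told apart. The same holds for Gm17494 on the opposite strand, since whether counting used strand was not stated. Means were 49.4 ± 25.7 FPKM with OI and 35.7 ± 25.1 FPKM in control (SD, n = 3 each), and the log2 fold change was 0.65 ± 0.66 (SE). The difference was within its error, and it was -0.03 without control replicate 2 and 1.17 without control replicate 3. Without control replicate 1 it was 0.80.

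Among the 6 copies Gm6061 had the widest spread between libraries. The coefficient of variation of Gm6061 was 52.0% with OI, where counting error gives 3.59%, and 70.3% in control, where it gives 4.5%. By contrast the OI libraries of Gm7049 varied by 3.45% where counting gives 7.15%, and those of Gm21399 by 4.94% where it gives 6.41%. The source of the spread of Gm6061 was not tested. Its share of the reads of the 6 copies was 61.0%, 39.9% and 34.3% with OI, against 48.5%, 24.7% and 65.2% in control. A total over the 6 copies would thus mainly follow Gm6061. No tested gene had a close profile: the nearest, the long intergenic RNA E130102H24Rik, was at a distance of 0.528 from Gm6061 and is listed at 0 in control replicate 2.

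Other Ppia copies were looked up after the match to Ppia was seen, and the 3 most abundant are given. Gm13493, 99.2% identical to Ppia, was at 29.2, 30.5 and 23.4 FPKM with OI, against 26.0, 26.8 and 32.9 FPKM in control. It was even across libraries, with a log2 fold change of -0.05 (0.03 with median-of-ratios scaling). The ratio of Gm6061 to Gm13493 was 2.7, 1.29 and 1.29 with OI, against 1.37, 0.394 and 1.84 in control. Gm5558, a lower copy, was at 4.78, 3.01 and 2.91 FPKM with OI, against 3.47, 2.52 and 4.78 FPKM in control. Like Gm6061 it was highest in OI replicate 1 and control replicate 3 and lowest in control replicate 2, over a narrower range. Gm6063 was at 4.11, 5.17 and 2.89 FPKM with OI, against 3.12, 3.72 and 4.47 FPKM in control, with a log2 fold change of 0.07.

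**Figure D4:**
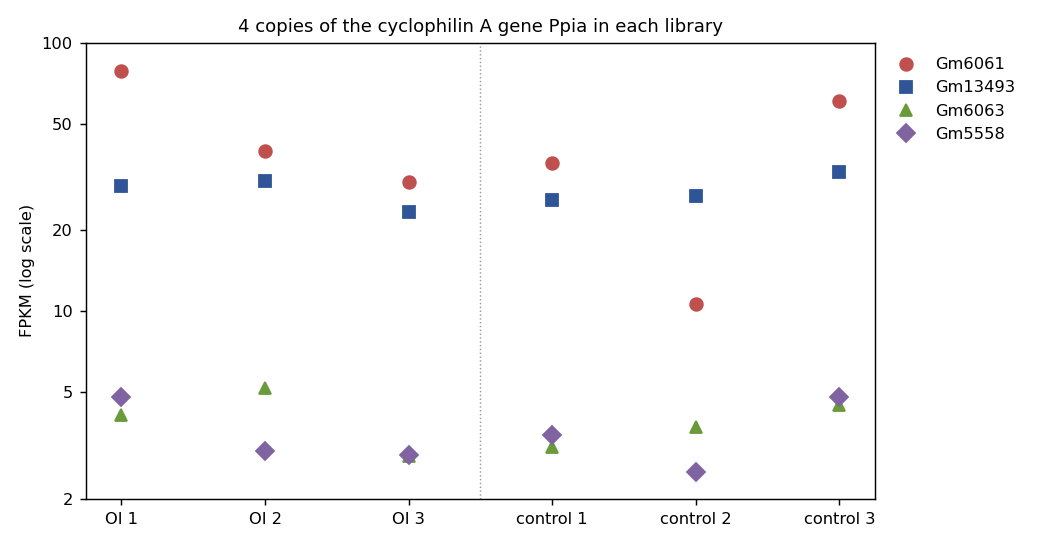
FPKM of Gm6061 and 3 further copies of Ppia in each library, on a log axis, with OI left of control. Gm6061 ranges from 10.6 to 78.7 FPKM, while Gm13493 stays between 23.4 and 32.9.

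Genes of the NRF2 pathway outside the 6 were taken from lists of 60 regulators and targets, none of which was itself among the genes analysed. Copies and overlapping genes stood in for them. Beside the 6 copies, 7 such genes were tested, of which 6 had a higher mean with OI, against 44.6% of all genes tested. Of the 7, 2 were called higher, against 1.15% of all genes tested, and none was called lower. Gm20528, Ugt1a6b and Ugt1a7c share exonic bases with the same gene, Ugt1a6a, so they are not separate genes of the lists. They and 4933431E20Rik, which shares exonic bases with Gstm5, were not called (limma, adjusted p between 0.11 and 0.401). The lists were also chosen with the contrast known. The counts and adjusted p-values of these genes are therefore descriptions, and nothing is read from them. Gm6644, a copy of the aldose reductase gene Akr1b3, was higher with OI. It was at 5.30, 6.44 and 5.73 FPKM with OI, against 2.54, 2.41 and 2.80 FPKM in control, and the log2 fold change was 0.93 (adjusted p = 0.00718, limma). Gm10252, which shares exonic bases with the ferritin light chain gene Ftl1, was at 1792, 1295 and 1431 FPKM with OI, against 838, 855 and 949 FPKM in control. It was higher by 0.76 on the log2 scale (adjusted p = 0.0423, limma), and leaving out any library gave an adjusted p between 0.0572 and 0.157. Gm16754, which overlaps the sensor gene Keap1, did not pass the test (-0.11 on the log2 scale, adjusted p = 0.745 with limma).

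Promoters could be read for Gm3776 alone among the 6, from RefSeq windows of GRCm38.p6. Its window matched that of Gsta1 at 284 of 287 overlapping columns (99.0%) and that of Gsta2 at 76.9%. The core of the antioxidant response element, searched as TGACNNNGC on both strands, was found in 12.4% of 32851 windows. It was not in these windows of Gm3776, Gsta1, Gsta2 or Gstm1, and 1 match each lay in those of Gclm, Prdx1 and Ppia. Me1 had 1 match in the window at chr9:86695865-86696164 and 0 in that at chr9:86687228-86687527. The windows are short, that of Gsta1 being chr9:78230419-78230718. Elements outside them were not searched, so a window without a match does not show that a gene lacks the element. The matches of the 3 NRF2 targets are printed in capitals with 10 bases on either side, in the direction of each gene.
Gclm: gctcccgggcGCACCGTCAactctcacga
Prdx1: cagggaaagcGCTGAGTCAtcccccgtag
Me1: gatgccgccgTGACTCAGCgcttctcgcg
A match describes letters in a window, not binding. Each processed pseudogene among the copies lies on a chromosome other than that of its parent. Gm6061 lies within the Gclm gene on chromosome 3, while its closest match Ppia is on chromosome 11.

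Under the alternatives tried, the log2 fold change of Gm3776 ran between 1.16 and 3.15, lowest with a pseudocount of 5 and highest with voom on read numbers. That of Gstm2-ps1 ran between 0.29 and 0.63, and that of Gm21399 between 0.14 and 0.29. The malic enzyme copies ran between 0.05 and 0.39 (Gm7329) and between 0.11 and 0.38 (Gm7049). Gm6061 was the only copy to change sign. In each other copy the difference stayed above 0 in these fits, though for Gm7329 it came near 0.

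**Figure D5:**
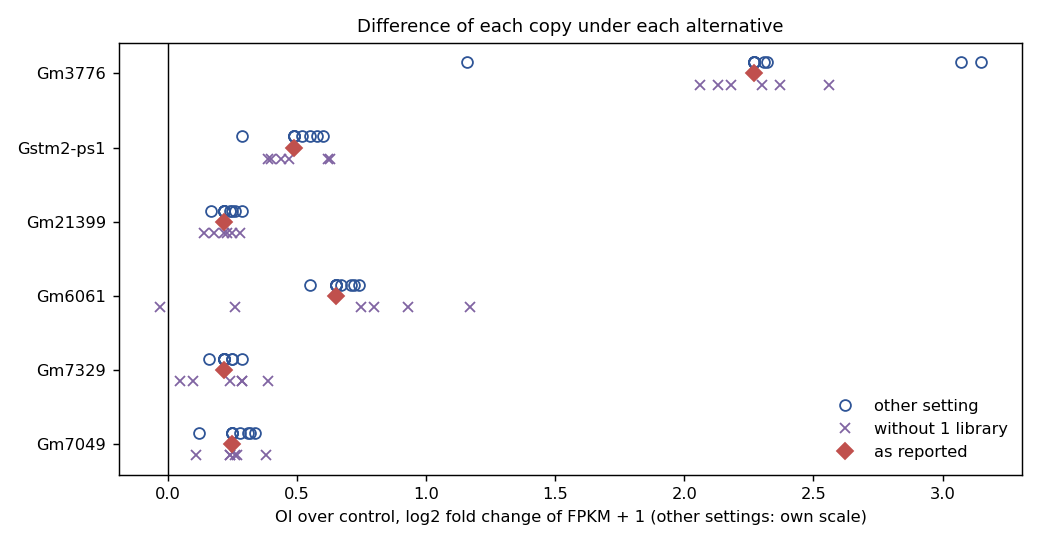
Each row is a copy, with the reported log2 fold change (OI over control) as a diamond, other settings as circles and fits without 1 library as crosses. Gm3776 is at 1.16 or more in each, and Gm6061 runs between -0.03 and 1.17.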

How the data were processed

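The authors deposited FPKM values per gene, 1 table per library. The submitters' processing notes list StringTie 1.3.3b, HISAT2 2.1.0, cutadapt 2.7 and build mm10, and no source used states the strand setting. Per the labels' protocols, total RNA was made into libraries with a TruSeq kit. Of 27943 rows 1 had a broken annotation and was left out. Genes in part of the identifier range were not analysed here.

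From the deposited FPKM values, gene length and the step of 1 read per library, read numbers were recovered (whole within 0.01 in all 1-exon genes). Genes with FPKM of 1 or more in at least 3 libraries were fitted with limma 3.58.1 (R 4.3.3) on log2(FPKM + 1), trend=TRUE, a two-sided test and no replicate block. P-values were adjusted by Benjamini-Hochberg over 1737 genes, with a threshold of 0.05. The fit was tested on simulated data. GENCODE M21 transcripts were matched by megablast (BLAST+ 2.17.0) with a minimum of 90% identity over 80% of the copy and an E-value limit of 1e-10, and copies covered less are called partial. Tables and figures used Python 3.11.15, pandas 2.3.3 and Matplotlib 3.10.9. Alternatives were pseudocounts of 0.1 and 5, no filter or 5 FPKM, median-of-ratios and quantile scaling, trend=FALSE, robust=TRUE, the replicate block, leaving out each library, and limma voom on recovered reads (10 or more in at least 3 libraries).

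The members and lists were chosen with earlier results of these data known, so the differences of the 6 copies are descriptions: whether limma called them is counted beside the share of all genes called, with no p-value and nothing read from it. Adjusted p-values printed for genes linked to the lists are descriptions for the same reason. Named genes were the 6 copies, other copies of their parents, genes linked to the NRF2 lists, the 2 genes with the nearest profile for each copy, and AY036118 and Tnnc1; copies of Ppia were added after the sequences were seen. A selection of these is printed.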

Additional observations from a re-analysis of the deposited data

How the results depend on the processing

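The copies kept a higher mean with OI under the alternatives run, except that Gm6061 was at -0.03 without control replicate 2. Without 1 library Gm6061 ran from -0.03 to 1.17. Outside the 6, Gm16754, lower with OI at -0.11, ran from -0.20 to 0.02 without 1 library, and was above 0 without OI replicate 2. Gm13493 (-0.05) ran from -0.12 to 0.07, Gm6063 (0.07) from -0.09 to 0.25, and AY036118 (-1.11) from -2.27 to 1.07, the highest without control replicate 1. The median log2 fold change of the 6 copies, 0.37, was 0.23 with a pseudocount of 5, 0.25 without Gm6061 (chosen after seeing the data), and 0.25 to 0.50 without 1 library. Gm3776 ran between 1.16 (pseudocount of 5) and 3.15 (voom on recovered reads). Genes called higher numbered 20 as reported, 3 with no filter, 3 with the replicate block and 2 to 11 without 1 library. Genes called lower numbered 28, and 11 with no filter, 18 with median-of-ratios scaling, 14 with the replicate block and 13 to 16 without 1 library. Copies with a higher mean numbered 5 to 6 without 1 library. Gm10252 also missed the threshold with no filter, either rescaling, trend=FALSE or the replicate block (limma, adjusted p between 0.0549 and 0.408). Gm6644 missed it under the replicate block alone (limma, adjusted p = 0.073). With a filter of 5 FPKM, Gstm2-ps1 and Gm7049 gave no value. The cause of these shifts was not tested.

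Libraries with the same replicate number showed little shared deviation (correlations 0.05, 0.14 and -0.08), and those with different numbers ran from -0.14 to 0.08. With 3 libraries per group, these values do not show that the numbers pair the samples and cannot exclude it. Under the replicate block the median of the copies was 0.37. Depth limits Gm3776 in control, with 12 to 31 reads, and Gm7329, with 35 to 86.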
